A study of Mus musculus with 12 samples.

Results

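The secretory genes of the epididymis and vas deferens, the ducts that carry sperm away from the testis, were followed through 12 RNA-seq libraries of the mouse adipose stromal vascular fraction, the stromal, vascular and immune cells left once the fat cells are removed. The set held 67 of the 24422 features in the count tables: 24 genes chosen by name (Crisp1, Crisp4, Akr1b7, 6 lipocalins, 3 cystatins, Ros1, Ces5a, Eppin, Spint4, Rnase9, Rnase10, Adam7, Adam28, Gpx5, Spag11a, Spag11b and Pate4) and all 43 features whose symbol starts with Defb and a digit, the beta-defensins, including the pseudogene Defb44-ps. The members were selected on read counts of these same libraries, in which duct genes had been seen at very unequal levels, so their levels are given as a description and support no claim about the groups. The libraries form 4 groups of 3. SD mCherry (replicates 1, 2 and 3) had the genotype p21+/mcherry and a standard diet, and HFD mCherry (replicates 15, 17 and 20) had the same genotype and a high-fat diet. HFD Tert (replicates 25, 26 and 27) was p21+/mcherry-Tert, in which the promoter of p21, a cell cycle inhibitor gene, drives telomerase reverse transcriptase, and HFD TertCi (replicates 30, 31 and 33) was p21+/mcherry-TertCi, with a catalytically inactive Tert; both were on a high-fat diet. By these labels all groups carried 1 modified p21 allele; the series' design text names the high-fat control p21+/- without mCherry, and the sample labels were followed. The labels give adipose tissue and stromal cells, and neither sex, fat depot, age nor batch. Nothing in them says that replicates came from separate animals, so p-values measure only the spread between these samples.

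The epididymis is a single coiled tube divided into an initial segment, caput, corpus and cauda, and it continues as the muscular vas deferens. Each stretch of its epithelium secretes its own mixture of proteins into the lumen, under the control of androgens and of factors that arrive with the testicular fluid. In the mouse, Lcn8, Lcn9, Cst8, Rnase10, Ros1 and Adam28 are known for the initial segment, Lcn5, Gpx5, Adam7 and Spag11b for the caput, Crisp1 and Ces5a for the distal caput to cauda, and Akr1b7 for the vas deferens. The beta-defensins are small cationic antimicrobial peptides, many of which coat maturing sperm.

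The libraries held 16430330 to 19486965 counts. Levels are given in CPM, the read count relative to the library size, which was scaled by the trimmed mean of M-values (TMM), and a count of 0 allows a level of up to 3 counts, 0.145 to 0.193 CPM depending on the library. The 11 listed genes of the adipose stroma, the labelled tissue, all reached 1 CPM in every library, with summed levels of 3914, 4005 and 2622 CPM in SD mCherry, 7466, 21273 and 21618 in HFD mCherry, 4315, 5593 and 10937 in HFD Tert and 3948, 7879 and 5856 in HFD TertCi. Libraries of 1 group stood far apart in the duct genes, as the next values show. In bulk RNA, fewer cells of a type and less RNA per cell cannot be told apart.

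The duct genes took between 0.000178% and 6.39% of a library's counts. In SD mCherry the shares were 2.30%, 0.0038% and 6.39%, so replicates 1 and 3 were rich in these transcripts and replicate 2 was nearly without them. HFD mCherry gave 5.65%, 0.174% and 0.00111%. The shares in HFD Tert were 2.21%, 1.06% and 0.000178%, the last resting on 32 counts. In HFD TertCi they were 3.66%, 0.0255% and 2.87%. Every group thus held at least 1 library with over 1% and 1 library under 0.1%, and the ranges of the 4 groups overlapped. The number of members at 10 CPM or more was 21, 1 and 29 of 67 in SD mCherry, 47, 3 and 0 in HFD mCherry, 5, 5 and 0 in HFD Tert, and 22, 3 and 5 in HFD TertCi. A large share did not mean many genes: HFD TertCi replicate 33 had 2.87% of its counts in members of which 5 reached 10 CPM, whereas HFD mCherry replicate 15 had 5.65% spread over 47.

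**Figure D1:**
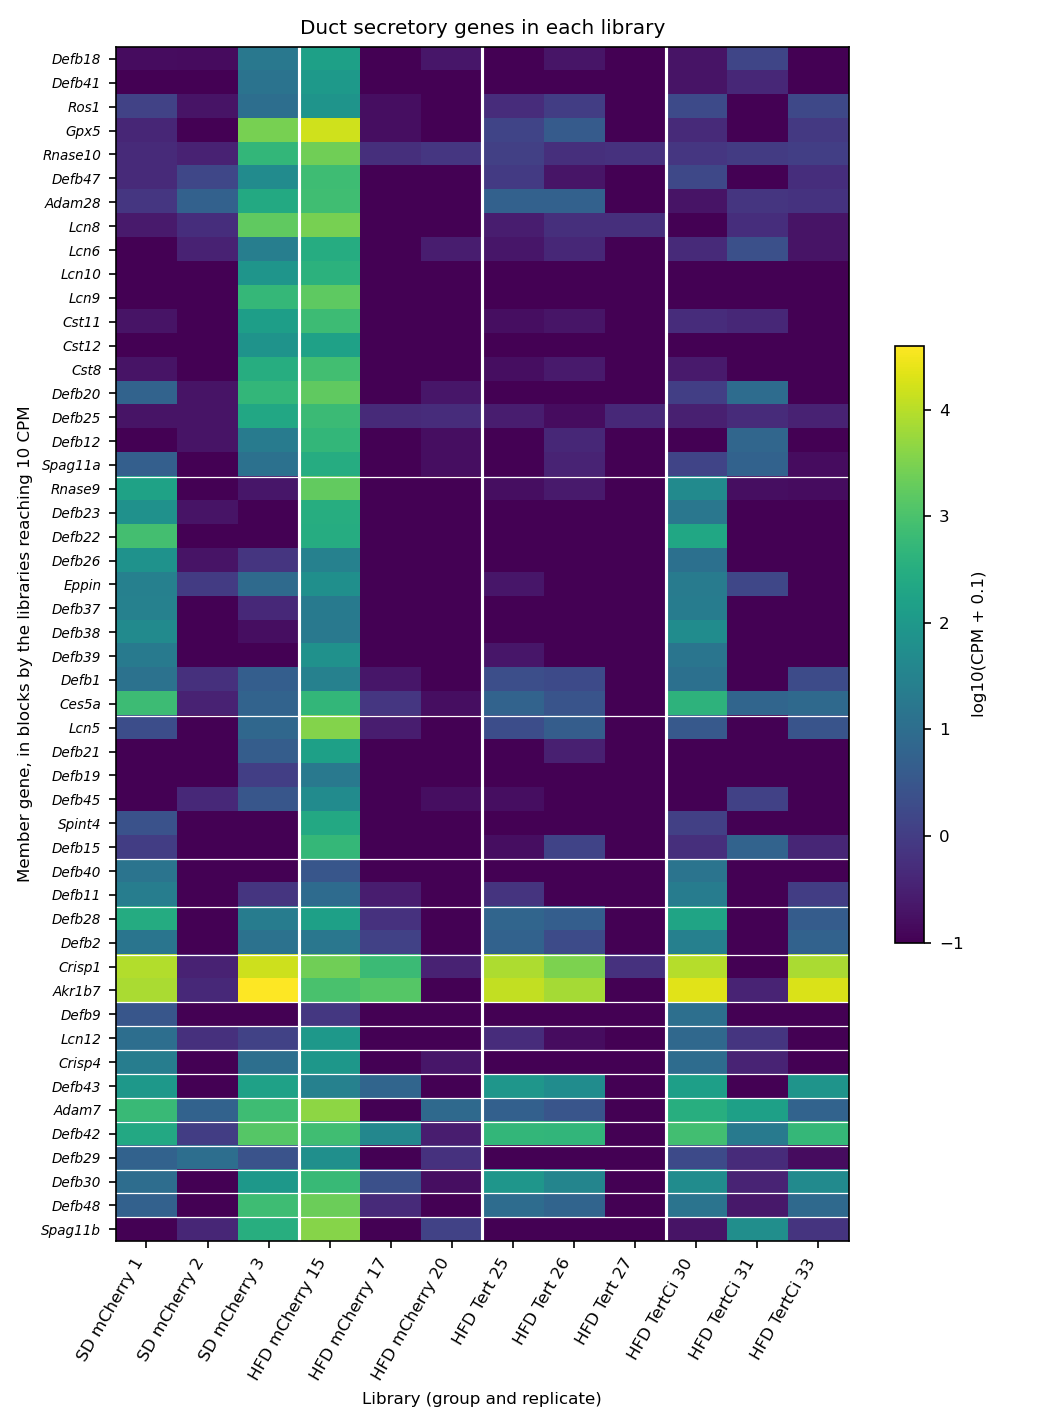
Level of each member as log10(CPM + 0.1), 1 column per library in label order and 1 line per gene; the 17 members under 10 CPM in all libraries are left out, thick lines part the label groups and thin lines part the blocks of genes that reach 10 CPM in the same libraries. Crisp1 and Akr1b7 are bright in 8 columns, whereas the upper block of 18 genes is bright in SD mCherry 3 and HFD mCherry 15.

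The genes fell into a few recurring combinations of libraries. Of the 67 members, 18 reached 10 CPM in SD mCherry replicate 3 and HFD mCherry replicate 15 and in no other library. A further 10 did so in SD mCherry replicate 1, HFD mCherry replicate 15 and HFD TertCi replicate 30. Crisp1 and Akr1b7 reached it in the same 8 libraries, 6 members in HFD mCherry replicate 15 alone, 17 in none, and the rest in further combinations of a few genes each. At a level of 5 or of 20 CPM the first combination held 15 genes, and 18 with library sizes left unscaled. None of the combinations matched a label group.

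Crisp1 and Akr1b7 were the most widespread. Crisp1 encodes a cysteine-rich secretory protein that binds the sperm surface. It stood at 8845, 0.242 and 14756 CPM in SD mCherry, 2392, 640.3 and 0.239 in HFD mCherry, 7961, 3059 and 0.528 in HFD Tert and 9585, 0 and 7800.4 in HFD TertCi. Each group held libraries of 640.3 CPM or more and at least 1 library under 1 CPM, so the groups overlapped. Akr1b7, an aldo-keto reductase of the vas deferens that detoxifies lipid aldehydes, had 7813, 0.339 and 37951 CPM in SD mCherry, 969, 1345 and 0 in HFD mCherry, 12442, 7044 and 0 in HFD Tert and 22704, 0.257 and 19105 in HFD TertCi. The same 8 libraries were high in both genes. The balance between them was not constant: the ratio of Akr1b7 to Crisp1 counts was lowest in HFD mCherry replicate 15 (0.405) and SD mCherry replicate 1 (0.883), and lay between 1.56 and 2.57 in the other 6 high libraries. Akr1b7 is also made in the adrenal cortex; the summed level of 4 adrenal genes was at most 1.85 CPM in 11 libraries and 43.7 CPM in HFD Tert replicate 26, where Cyp21a1 had 29.6 and Cyp11b1 12.4 CPM. Reads of Akr1b7 could also come from Gm13857, which overlaps it on the other strand, since the use of strand in counting is not given.

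**Figure D2:**
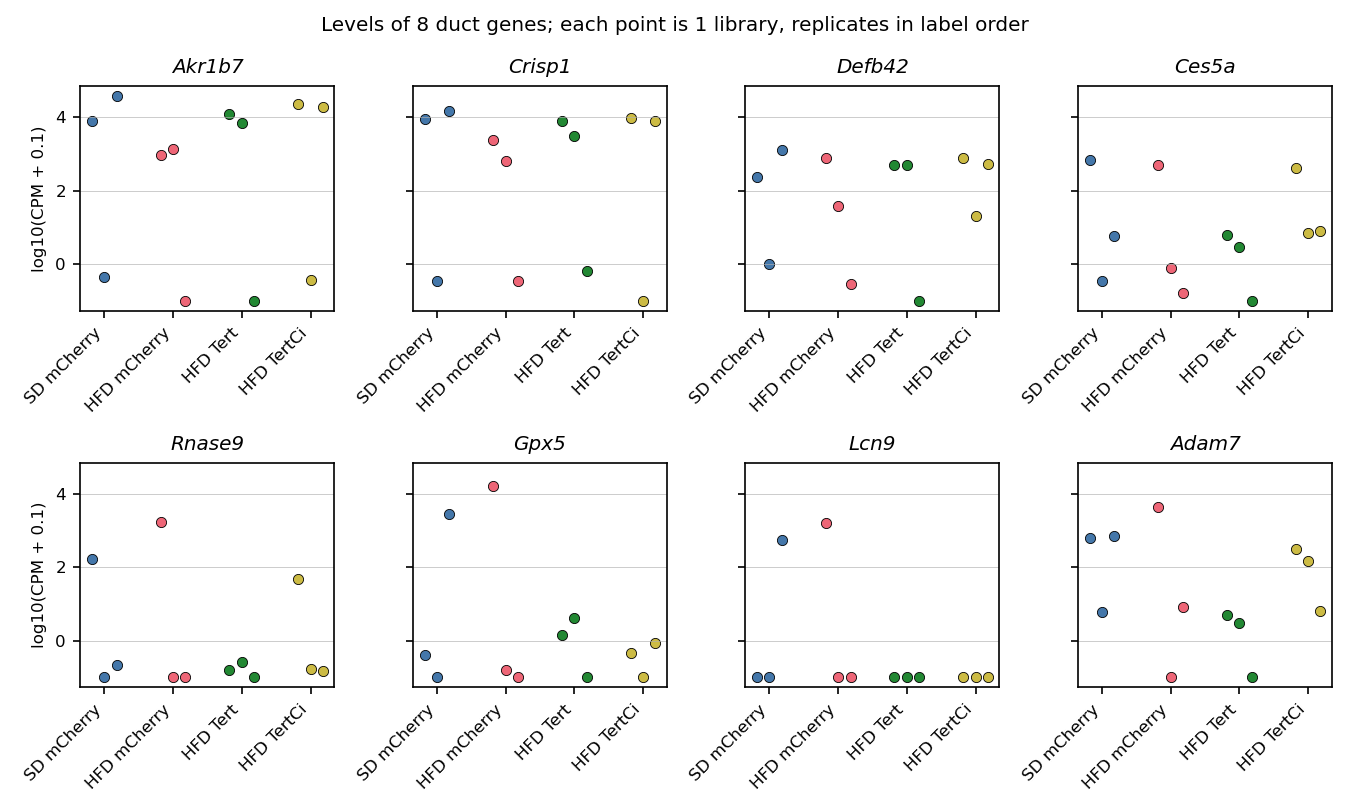
Level of 8 duct genes as log10(CPM + 0.1) in the 3 libraries of each group, 1 point per library in label order. Akr1b7 and Crisp1 are high in 8 libraries, Ces5a and Rnase9 stand out in SD mCherry 1, HFD mCherry 15 and HFD TertCi 30, and Gpx5 and Lcn9 in SD mCherry 3 and HFD mCherry 15.

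The beta-defensins Defb42 and Defb43 were found where Crisp1 was. Defb42 had 237, 0.92 and 1324 CPM in SD mCherry, 761, 39.3 and 0.179 in HFD mCherry, 504, 496 and 0 in HFD Tert and 795, 19.9 and 549 in HFD TertCi. For Defb43 the values were 95.9, 0 and 161 in SD mCherry, 28.7, 6.6 and 0 in HFD mCherry, 87.3, 54 and 0 in HFD Tert and 147, 0 and 80.0 in HFD TertCi. Both were high in the libraries high in Crisp1 and low elsewhere, except that Defb42 also had 19.9 CPM in HFD TertCi replicate 31, where Crisp1 and Defb43 had no count. Over the 12 libraries, which share the scaling of each library among all genes, Pearson's r on log2(CPM + 0.1) with Crisp1 was 0.985 for Akr1b7, 0.992 for Defb43, 0.888 for Defb42 and 0.322 for Lcn9. Defb30 had 9.76, 0 and 98.2 in SD mCherry, 606, 2.22 and 0.0596 in HFD mCherry, 86.8, 35.4 and 0 in HFD Tert and 53.6, 0.257 and 47.4 in HFD TertCi. Its level was highest in HFD mCherry replicate 15, where Crisp1 was at 2392 CPM.

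The genes listed for the initial segment were seen together in 2 libraries, 1 of each diet. Lcn6, Lcn10, Cst11 and Cst12, which were not placed in a segment, shared these libraries, as did the caput gene Gpx5 and several beta-defensins. Lcn9, of the lipocalin family of carriers of small hydrophobic molecules, had 547 CPM in SD mCherry replicate 3 and 1597 CPM in HFD mCherry replicate 15, with no count in the other 10. Of its neighbours in the family, Lcn8 had 1724 and 2764 CPM in these libraries and at most 0.48 CPM elsewhere, and Lcn10 84.2 and 402 CPM with no count elsewhere, whereas Lcn5 (a caput gene) was high in HFD mCherry replicate 15 alone. Lcn6 had 24.9 and 287 CPM and at most 2.19 CPM elsewhere. Among the cystatins, inhibitors of cysteine proteases, Cst8 had 305 and 804 CPM, Cst11 138 and 699 CPM, and Cst12 75.6 and 161 CPM, and none of the 3 passed 0.407 CPM in any other library. Rnase10, a secreted member of the ribonuclease A family, had 520.3 and 2404 CPM against 0.242 to 1.05 CPM in the rest. Ros1, the receptor tyrosine kinase needed for the initial segment to form, had 10.2 and 77.6 CPM, and 0 to 1.68 CPM elsewhere. Adam28, a member of the disintegrin and metalloprotease family, had 247 and 780 CPM; it was also seen at 5.33, 5.42 and 5.49 CPM in SD mCherry replicate 2 and HFD Tert replicates 25 and 26. All these genes were higher in HFD mCherry replicate 15 than in SD mCherry replicate 3. HFD mCherry replicate 15 and SD mCherry replicate 3 each shared a label group with 2 libraries in which Lcn9 was not counted.

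The caput genes divided further. Gpx5, a secreted glutathione peroxidase that protects sperm from oxidation, had 0.305, 0 and 2765 CPM in SD mCherry, 16060, 0.060 and 0 in HFD mCherry, 1.28, 3.94 and 0 in HFD Tert and 0.356, 0 and 0.751 in HFD TertCi. It was the most abundant member by counts in HFD mCherry replicate 15. Lcn5, which binds retinoic acid, had 1.98, 0 and 7.34 in SD mCherry, 3632, 0.18 and 0 in HFD mCherry, 1.98, 4.48 and 0 in HFD Tert and 3.51, 0 and 2.75 in HFD TertCi, so SD mCherry replicate 3 had Gpx5 at 2765 and Lcn8 at 1724 CPM with Lcn5 at 7.34. Adam7 reads were wider: 625, 5.81 and 725 in SD mCherry, 4405, 0 and 8.17 in HFD mCherry, 5.01, 2.88 and 0 in HFD Tert and 324, 149 and 6.11 in HFD TertCi. This gene was the only one of the caput list above 100 CPM in SD mCherry replicate 1 and HFD TertCi replicate 30. Spag11b, a beta-defensin-like sperm-binding peptide gene, had 0, 0.29 and 323 in SD mCherry, 3758, 0 and 1.19 in HFD mCherry, 0, 0 and 0 in HFD Tert and 0.102, 58.7 and 0.601 in HFD TertCi; Gm45826 overlaps it and Spag11a on the same strand, so their counts are uncertain.

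HFD TertCi replicate 31 carried a small, different mixture. Adam7 had 149 CPM and Spag11b 58.7 CPM there, followed by Defb42 (19.9 CPM), Defb20 (9.38 CPM), Defb12 (7.13 CPM), Ces5a (6.75 CPM), Defb15 (5.91 CPM) and Spag11a (5.66 CPM). Crisp1, Gpx5, Lcn5 and Lcn9 had no count in it. The members held 4261 counts there, so these levels rest on far fewer reads than those of HFD mCherry replicate 15, with 970826.

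Ces5a, Rnase9 and several beta-defensins marked a separate combination. Ces5a, a carboxylesterase secreted in the distal duct, had 697, 0.242 and 5.84 CPM in SD mCherry, 504, 0.66 and 0.0596 in HFD mCherry, 5.94, 2.82 and 0 in HFD Tert and 419, 6.75 and 7.91 in HFD TertCi. SD mCherry replicate 3, the library highest in Crisp1 and Akr1b7, had 5.84 CPM of it. Rnase9, a second ribonuclease A family gene of the duct, had 165, 0 and 0.116 in SD mCherry, 1763, 0 and 0 in HFD mCherry, 0.0583, 0.16 and 0 in HFD Tert and 47.5, 0.0643 and 0.050 in HFD TertCi. Both were high in SD mCherry replicate 1, HFD mCherry replicate 15 and HFD TertCi replicate 30. Defb22, whose product is a major glycoprotein of the sperm coat, had 832 CPM, 291 CPM and 221 CPM in these libraries and no count in the other 9. Defb23 (69.5, 315 and 16.4 CPM), Defb26 (69.8, 29.4 and 11.8 CPM) and Defb38 (46.6, 18.6 and 52.4 CPM) followed the same libraries in that order, with at most 0.636 CPM in the others. So did Eppin (27.1, 60.3 and 21 CPM), a protease inhibitor of the sperm surface, which also had 8.44 CPM in SD mCherry replicate 3. Defb28 had 281, 149 and 184 CPM, 22.3 CPM in SD mCherry replicate 3 and at most 6.53 CPM elsewhere.

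The remaining members with names were lower or rested on 1 library. Spint4, a Kunitz-type protease inhibitor gene, had 242 CPM in HFD mCherry replicate 15 and at most 2.44 CPM in the others. Crisp4, which acts on sperm ion channels, had 23.0 and 10.8 CPM in SD mCherry replicates 1 and 3, 92.6 CPM in HFD mCherry replicate 15, 9.22 CPM in HFD TertCi replicate 30 and at most 0.257 CPM elsewhere. Lcn12 had 10.6 CPM in SD mCherry replicate 1, 95.6 CPM in HFD mCherry replicate 15 and 7.64 CPM in HFD TertCi replicate 30. Pate4, of the Ly6 family, stayed between 0 and 3.66 CPM; it overlaps Pate2 on the other strand.

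Levels of different genes can be compared per kilobase of exon. Summed CPM per kilobase over the 13 members placed in a segment described each library with over 1000 counts of these genes. The smaller shares depend on the length correction. In HFD mCherry replicate 15 the initial segment genes made up 30.7% of the sum, the caput genes 60%, the distal pair Crisp1 and Ces5a 6.63% and Akr1b7 2.69%. SD mCherry replicate 3 gave 8.68%, 4.37%, 22.6% and 64.3% in that order. In SD mCherry replicate 1 the initial segment genes made up 0.0062% and the caput genes 1.15%, with 51.0% for the distal pair and 47.9% for Akr1b7. HFD TertCi replicate 30 held 0.00325%, 0.320%, 28.0% and 71.7%. In the remaining 4 libraries high in Crisp1, Crisp1 and Akr1b7 made up almost all of the sum. Akr1b7 made up 69.9% in HFD mCherry replicate 17 and 73.0% in HFD TertCi replicate 33. In HFD Tert replicates 25 and 26 it made up 63.3% and 71.7%. The caput list made up at most 0.106% in any of them. Ces5a was at 0.66 to 7.91 CPM in these libraries, so the share of the distal pair there was nearly all Crisp1. In HFD TertCi replicate 31 the caput list made up 94.7%. With counts not corrected for length, the initial segment share of SD mCherry replicate 3 became 5.6%, and the caput shares of SD mCherry replicate 1 and HFD TertCi replicate 30 became 3.49% and 0.994%.

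Pairs of libraries ranged from alike to unlike, both across and within label groups. Spearman's rho over the members counted in at least 1 library of a pair was highest between SD mCherry replicate 1 and HFD TertCi replicate 30 (0.929, 51 members), which differ in diet and genotype. It was 0.879 between HFD Tert replicate 25 and HFD TertCi replicate 33 (35 members) and 0.749 between SD mCherry replicate 3 and HFD mCherry replicate 15 (62 members). Within groups, the highest values were 0.784 for HFD Tert replicates 25 and 26 (35 members) and 0.396 for HFD TertCi replicates 30 and 33 (49 members). All other pairs within groups lay between -0.334 (HFD TertCi replicates 31 and 33, 39 members) and 0.306 (HFD mCherry replicates 15 and 20, 61 members). These are correlations across genes, which are not independent replicates.

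Promoters of genes from the main combinations are shown because the genes in a combination were high in the same libraries: Crisp1, Akr1b7 and, close to them in pattern, Defb43, then Lcn8 and Cst8, then Defb22. They are the 250 bases before the transcription start in RefSeq on GRCm38.p6, read 5′ to 3′ on the gene's strand, and capitals mark TGTTCT or its reverse complement AGAACA, the half-site shared by several steroid hormone receptors.
Crisp1 (chr17:40319208-40319457, minus strand): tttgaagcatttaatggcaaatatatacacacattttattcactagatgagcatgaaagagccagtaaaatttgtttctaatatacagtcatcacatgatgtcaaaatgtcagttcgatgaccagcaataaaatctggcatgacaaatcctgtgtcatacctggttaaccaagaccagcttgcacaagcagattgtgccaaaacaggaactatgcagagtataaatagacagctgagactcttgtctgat
Akr1b7 (chr6:34412112-34412361, plus strand): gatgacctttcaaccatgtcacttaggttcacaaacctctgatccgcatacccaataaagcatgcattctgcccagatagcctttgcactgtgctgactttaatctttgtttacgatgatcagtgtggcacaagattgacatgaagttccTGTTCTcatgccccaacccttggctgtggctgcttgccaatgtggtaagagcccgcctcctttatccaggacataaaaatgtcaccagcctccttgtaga
Defb43 (chr14:63011521-63011770, plus strand): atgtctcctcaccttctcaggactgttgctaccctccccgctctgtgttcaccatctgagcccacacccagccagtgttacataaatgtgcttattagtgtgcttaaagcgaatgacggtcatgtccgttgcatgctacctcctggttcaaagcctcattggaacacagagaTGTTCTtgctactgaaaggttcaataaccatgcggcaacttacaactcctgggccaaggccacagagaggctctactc
Lcn8 (chr2:25652868-25653117, plus strand): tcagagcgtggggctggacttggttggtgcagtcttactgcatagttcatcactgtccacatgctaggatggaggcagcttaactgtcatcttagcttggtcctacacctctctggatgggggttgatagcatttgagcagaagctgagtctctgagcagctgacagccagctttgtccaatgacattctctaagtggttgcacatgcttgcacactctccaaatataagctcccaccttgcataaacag
Cst8 (chr2:148798589-148798838, plus strand): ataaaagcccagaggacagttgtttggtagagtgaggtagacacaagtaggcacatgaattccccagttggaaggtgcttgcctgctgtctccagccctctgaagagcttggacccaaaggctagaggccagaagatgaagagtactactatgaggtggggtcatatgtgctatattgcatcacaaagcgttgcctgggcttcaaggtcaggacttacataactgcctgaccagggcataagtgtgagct
Defb22 (chr2:152490139-152490388, minus strand): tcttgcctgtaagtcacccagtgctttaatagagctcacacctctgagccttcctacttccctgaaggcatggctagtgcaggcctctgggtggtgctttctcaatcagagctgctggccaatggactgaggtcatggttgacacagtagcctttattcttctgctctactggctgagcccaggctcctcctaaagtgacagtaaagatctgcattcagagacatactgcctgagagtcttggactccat
Among these 6, the half-site occurs in Akr1b7 and Defb43. RefSeq promoters were matched for 47 of the 67 members, with 49 starts between them; 11 of these starts lie inside the span of the gene's RefSeq record rather than at its end, which is not so for the 6 shown. The half-site was present on either strand in 23 of these 49 promoters (46.9%), against 16.1% of all 32851 promoters of the same length. The median GC content was 48.4% in the members' promoters and 52.4% in all. Of the promoters of members at 10 CPM in SD mCherry replicate 3 and HFD mCherry replicate 15 alone, 7 of 13 held it (53.8%), and of those in SD mCherry replicate 1, HFD mCherry replicate 15 and HFD TertCi replicate 30 alone, 3 of 8 (37.5%). The other motifs searched on both strands were TATAAA (14.3% of the members' promoters, 12.4% of all), AGGAAG of ETS factors (24.5% and 29.5%) and TGTTTAC of forkhead factors (2.04% and 3.17%). On the gene's strand 40 to 16 bases before the start, TATAAA was found in 8.16% of the members' promoters and 1.99% of all. Members of 1 gene family are not independent sequences, and a match to letters is not a binding site.

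Genes that lie next to each other did not always appear in the same libraries. On chromosome 2, 11 beta-defensin genes lie within 164 kb (GRCm38.p6, chr2:152459055-152623053). Defb20 lies between Defb23 and Defb22. It had 501 CPM in SD mCherry replicate 3, where its neighbours on both sides had no count, and 6.0 CPM in SD mCherry replicate 1, where Defb23 had 69.5 and Defb22 832 CPM. Defb25, at the far end, had 229 CPM in SD mCherry replicate 3, 657 CPM in HFD mCherry replicate 15 and at most 0.417 CPM elsewhere. Defb20 had at most 9.38 CPM outside those libraries. All 11 genes were counted in HFD mCherry replicate 15, from 4.47 CPM for Defb36 to 1721 CPM for Defb20. Defb29 had 5.79, 10.7 and 2.66 CPM in SD mCherry, 60.3, 0 and 0.537 in HFD mCherry, 0, 0 and 0 in HFD Tert and 1.68, 0.386 and 0.050 in HFD TertCi. Defb36 was likewise highest in SD mCherry replicate 2 within its group, at 6.1 CPM. Defb29 was the most abundant member by counts in SD mCherry replicate 2.

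**Figure D3:**
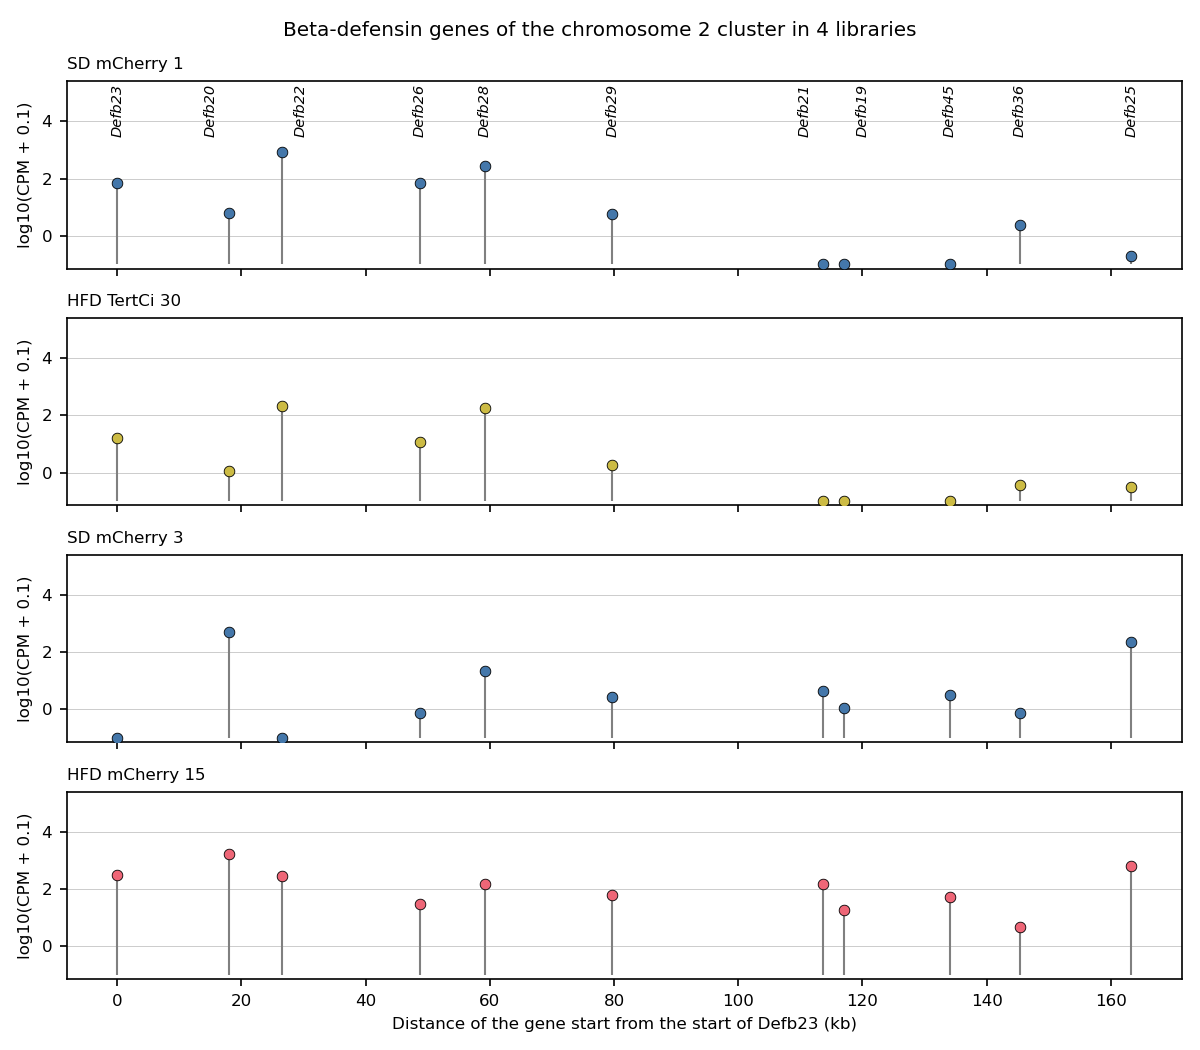
Level of the 11 beta-defensin genes of the chromosome 2 cluster as log10(CPM + 0.1) against the distance of the gene from Defb23 in kb, in 4 libraries. Defb20 is high in SD mCherry 3 and HFD mCherry 15 while its neighbours Defb23 and Defb22 are without counts in SD mCherry 3.

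Of the beta-defensins not yet described, the following had a mean of at least 5 CPM. Those of the first combination had their values in SD mCherry replicate 3 and HFD mCherry replicate 15: Defb18 had 17 and 156 CPM and at most 1.41 CPM elsewhere, Defb41 had 13.4 and 105 CPM and at most 0.321 elsewhere, and Defb12 had 21.2 and 511 CPM and at most 7.13 elsewhere. Defb21 was close to a gene of 1 library, with 149 CPM in HFD mCherry replicate 15, 4.28 in SD mCherry replicate 3 and at most 0.213 elsewhere. Defb37 and Defb39 followed Rnase9, with 29.5 and 18.8 CPM in SD mCherry replicate 1, 19.2 and 68.6 in HFD mCherry replicate 15, 22.2 and 14.7 in HFD TertCi replicate 30, and at most 0.347 elsewhere. Defb1 and Defb2 were lower and wider. Defb1 had 12.9, 0.484 and 4.63 CPM in SD mCherry, 29.4, 0.12 and 0 in HFD mCherry, 2.1, 1.71 and 0 in HFD Tert and 11.4, 0 and 1.85 in HFD TertCi. Defb2 had 15.2, 0 and 13.1 in SD mCherry, 16.9, 1.08 and 0 in HFD mCherry, 5.53, 1.81 and 0 in HFD Tert and 27.1, 0 and 5.75 in HFD TertCi, so it was counted in all 8 libraries high in Crisp1 and in none of the others.

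A chromosome 14 group of 5 beta-defensin genes within 71.1 kb (chr14:62977524-63048606) was divided in a similar way. Defb48 and Defb47, at one end, were highest in HFD mCherry replicate 15 (2234 and 729.5 CPM) and SD mCherry replicate 3 (728 and 50.0 CPM), and reached at most 14.2 CPM elsewhere. Defb43, Defb30 and Defb42, at the other end, were also seen in both high HFD Tert libraries. The 3 cystatin genes within 37.0 kb and 4 of the 6 lipocalin genes within 335 kb on chromosome 2 shared 1 combination of libraries. On chromosome 8, 16 genes lie within 523 kb. Defb40, Defb37, Defb38 and Defb39, at one end, all reached 10 CPM in SD mCherry replicate 1 and HFD TertCi replicate 30. Defb12, Spag11b and Spag11a, in the middle, reached it in HFD mCherry replicate 15 and SD mCherry replicate 3. Spag11b also had 58.7 CPM in HFD TertCi replicate 31. Defb34, between Defb12 and Spag11b, was at most 0.165 CPM, and the genes beyond Spag11a stayed under 2 CPM in every library. In a second chromosome 8 group of 9 genes within 172 kb, Defb15 had 535 CPM in HFD mCherry replicate 15 and at most 5.91 CPM in the other libraries, and Gm36879 overlaps it on the other strand. In all, 5 members had no count in any library: Defb46, Defb5, Defb8, Defb7 and Defb33.

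No tested member was called between the label groups by the main test, which does not show that their levels were equal. Of the 67 members, 45 passed the filter on low counts and entered the edgeR quasi-likelihood fit of 16713 genes; the 22 others included Lcn8, Lcn9, Lcn10 and all 3 cystatins, which were high in too few libraries to pass. For HFD mCherry against SD mCherry, edgeR called 0 of 45 members at an adjusted p under 0.05 (0.0479% of all genes tested), and 2 had an unadjusted p under 0.05, as did 24.1% of all genes. HFD Tert against HFD mCherry gave 0 of 45 (0% of all genes) and 20 at an unadjusted p under 0.05 (16.4% of all genes). HFD TertCi against HFD mCherry gave 0 (0.012% of all genes) and 6 (14.7% of all genes at an unadjusted p under 0.05), and HFD Tert against HFD TertCi 0 (0% of all genes) and 0 (1.36%). The tested members could pass the filter through the libraries in which they were high, so these counts support nothing about the groups. The smallest adjusted p of a member by edgeR was 0.148, for Defb15 in the first of these comparisons. Limma-voom called 0 members in all 4, and edgeR 0 with any 1 of the 12 libraries left out.

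DESeq2 gave an adjusted p to 15 members in each of the first 3 comparisons and to 24 in the fourth. It called 4 members lower in HFD Tert than in HFD mCherry (Crisp4, Adam7, Defb29 and Defb36; 4.86% of all genes were called) and 2 lower in HFD Tert than in HFD TertCi (Crisp4 and Defb29; 0.0341% of all genes). It called no member for HFD mCherry against SD mCherry (12.6% of all genes) or for HFD TertCi against HFD mCherry (3.71% of all genes). For Adam7 the DESeq2 log2 fold change was -9.15 ± 2.63 (SE, adjusted p = 0.0211); Crisp4, Defb29 and Defb36 had no count in any HFD Tert library, so no fold is given for them. In HFD mCherry the counts were 1679, 0 and 2 for Crisp4, 1093, 0 and 9 for Defb29, and 81, 0 and 3 for Defb36. Adam7 had 79878, 0 and 137 counts in HFD mCherry, against 86, 54 and 0 in HFD Tert. Each of these 4 members was thus high in replicate 15 alone among the HFD mCherry libraries. The libraries of 2 groups did not overlap for 4 members, Adam7, Defb29, Spag11b and Ces5a, all lower in HFD Tert than in HFD TertCi (5.13% of all genes did not overlap). For Defb29 and Spag11b, all HFD Tert libraries were at 0 and the lowest HFD TertCi library had 1 and 2 counts, under the 3 counts that a 0 allows, so at this depth these 2 cannot be told from overlapping. No tested member was free of overlap in HFD mCherry against SD mCherry (25.5% of all genes), HFD Tert against HFD mCherry (21.1%) or HFD TertCi against HFD mCherry (21.5%).

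The estimates carried large errors. The log2 fold change of Crisp1 was -2.96 ± 3.30 (SE) in HFD mCherry against SD mCherry (edgeR adjusted p = 0.587), with group means of 1011 and 7867 CPM. It was 1.86 ± 3.16 in HFD Tert against HFD mCherry (edgeR adjusted p = 0.799), 2.52 ± 3.24 in HFD TertCi against HFD mCherry (0.748), and -0.66 ± 3.08 in HFD Tert against HFD TertCi (1.0). Akr1b7 gave -4.31 ± 3.69, 3.07 ± 3.48, 4.18 ± 3.66 and -1.10 ± 3.26 in the same order, with edgeR adjusted p of 0.473, 0.682, 0.621 and 1.0. The first 3 comparisons share the HFD mCherry libraries. The median SE over the tested members was 2.67 to 3.5 across the comparisons, against 0.407 to 0.409 over all genes tested. The median log2 fold change of the tested members was 1.61, -8.81, -2.85 and -4.30, beside -0.08, -0.05, -0.04 and -0.01 for all genes. In HFD Tert against HFD mCherry, where 40 of the 45 estimates were below 0, HFD mCherry replicate 15 alone among the 6 libraries had Lcn5, Gpx5 and Spag11b above 10 CPM.

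Some duct genes that are not members were high in the same libraries as members. The number at 1 CPM did not follow Crisp1: it was larger in HFD TertCi replicate 31, without a Crisp1 count, than in replicate 33. Of 21 other secretory genes of the epididymis in the tables, 12, 1 and 16 reached 1 CPM in SD mCherry, 20, 4 and 0 in HFD mCherry, 5, 4 and 0 in HFD Tert, and 11, 9 and 6 in HFD TertCi. Of these, 19 entered the edgeR fit, which called 0 in each of the 4 comparisons, with 1, 10, 5 and 0 at an unadjusted p under 0.05 in the order given above (24.1%, 16.4%, 14.7% and 1.36% of all genes). DESeq2, which gave an adjusted p to 6 of them in the first 3 comparisons and 7 in the fourth, called Spink10 and Wfdc8 lower in HFD Tert than in HFD mCherry, and Spink10 lower in HFD Tert than in HFD TertCi, beside the 4.86% and 0.0341% of all genes given above. Spink8, a protease inhibitor gene, and Serpina1f, a serpin, were at 956.5 and 817 CPM in SD mCherry replicate 1 and had no count in SD mCherry replicate 2. Teddm1a, an epididymal membrane protein gene, was at 714 CPM in SD mCherry replicate 3 and 2521 CPM in HFD mCherry replicate 15, and under 1 CPM elsewhere. Wfdc13, of the whey acidic protein family, had 299 CPM in SD mCherry replicate 1, 279 CPM in HFD mCherry replicate 15 and 238 CPM in HFD TertCi replicate 30, and at most 1.09 CPM elsewhere.

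Of the 15291 other genes whose mean reached 1 CPM, the 10 most like Crisp1 over the 12 libraries were Serpina1f, Cwh43, Gm5087, Crygc, Adgrg7, Acbd7, Spink8, Cyp4a30b, Ces1e and Mybpc1. Their Pearson's r on log2(CPM + 0.1) was 0.995 to 0.968. The same measure was taken for Lcn9 and Ces5a after their values had been seen. Those most like Lcn9 included 9230110F15Rik (286 CPM in SD mCherry replicate 3, 827 CPM in HFD mCherry replicate 15 and no count elsewhere), Gm4846, Obp2a, Mup4 and Ovch2. Ccdc84 ranked first for Ces5a with r = 0.955 although it only ranged from 6.75 to 15 CPM, and Abcb5, Ceacam10, Wfdc13 and Pate2 were also among its 10.

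Markers of other cell types moved with some of these levels, and their part in the result was not tested. Summed levels of 11 epithelial genes were 3709, 5932 and 3202 CPM in SD mCherry, 3014, 142 and 312 in HFD mCherry, 3059.7, 2101 and 111 in HFD Tert and 3092, 382 and 1737 in HFD TertCi. SD mCherry replicate 2 had the highest sum with almost no duct secretory transcripts, and HFD mCherry replicate 17 had 640.3 CPM of Crisp1 with an epithelial sum of 141.5. The 6 smooth muscle genes summed to 8108, 2816 and 25852 in SD mCherry, 2651, 2952 and 1036 in HFD mCherry, 18061, 25504 and 2473 in HFD Tert and 15938, 3858 and 13699.9 in HFD TertCi. The 6 highest of these sums were all in libraries high in Akr1b7, whereas HFD mCherry replicates 15 and 17, also high in Akr1b7, lay within the range of the others. Pax8, a transcription factor of the duct epithelium, had 83.3, 54.2 and 98.5 CPM in SD mCherry, 79.6, 4.86 and 1.55 in HFD mCherry, 57.8, 23.3 and 0 in HFD Tert, and 95.2, 1.93 and 81.2 in HFD TertCi. Pax8 was thus present in SD mCherry replicate 2, where members took 0.0038% of the counts and the highest of them, Defb29, had 10.7 CPM. The 5 urothelium genes summed to 898 CPM in SD mCherry replicate 2 and to 704 and 705 CPM in HFD Tert replicates 25 and 26, and to at most 99.9 CPM in the other 9 libraries.

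Genes that define the accessory glands had few or no counts. Of 7 seminal vesicle genes, Svs1, Svs3a, Svs3b and Svs4 had no count in any library, and the list summed to at most 0.643 CPM. Of 5 prostate genes, Pbsn, Sbp and Msmb had no count, and the sum of the 5 ran from 7.98 to 18 CPM. Transcripts of male germ cells, 12 genes, were highest in HFD mCherry replicate 15 at 85.6 CPM and were 1.26 to 26.3 CPM elsewhere. Of these, Odf1 of the sperm tail had 22.9 CPM and Prm2, a protamine, 19.0 CPM in HFD mCherry replicate 15.

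**Figure D4:**
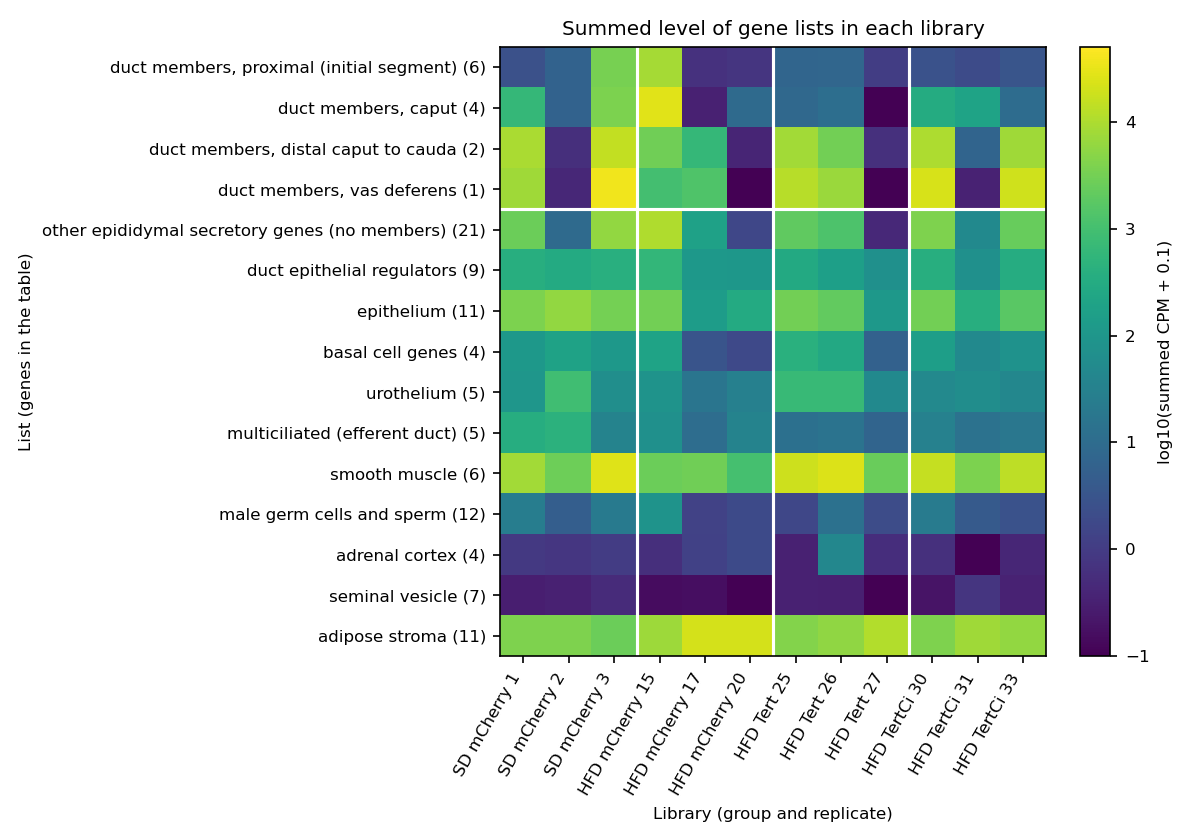
Summed level of 15 gene lists as log10(summed CPM + 0.1) in each library, with the number of genes of each list in the tables; the 4 upper lists are members. The member lists vary from one library to the next within every group, while the adipose stroma list lies between 2622 and 21618 CPM in all 12.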

How the data were processed

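RNA from 12 mouse adipose stromal vascular fraction samples was selected by poly-T beads and copied from random primers, per the labels' protocols. The authors deposited raw read counts per gene for each library; Subread, SAMtools, featureCounts 1.6.4 and the mouse build mm10 are named in the submitters' processing notes. The annotation and the use of strand in counting are not given in the sources used here. Reads shared by near-identical genes may have been dropped or split, so low counts of duplicated beta-defensins are uncertain. The counts of replicates differed beyond sampling noise in every pair (chi-square divided by its degrees of freedom at least 20.5).

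Counts were analysed as deposited with edgeR 4.0.16 in R 4.3.3: filterByExpr with the 4 groups kept 16713 genes, TMM factors ran from 0.855 to 1.15, and 1 robust quasi-likelihood model with 8 residual degrees of freedom was fitted to all 12 libraries (common biological coefficient of variation 0.536). Tests were 2-sided, with Benjamini-Hochberg adjustment over all genes tested. The pipeline was tested on simulated data. Alternatives used DESeq2 1.42.0 and limma 3.58.1, other scalings and filters, and each library left out.

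The members, lists and tests were chosen with earlier results of these data known, and the motifs and printed promoters after the levels had been seen. Levels in every library are given for members placed in a segment and for beta-defensins with a mean of at least 5 CPM, low libraries by their highest value; edgeR fold changes are given for Crisp1, Akr1b7 and any member that edgeR called. Gene positions and promoters are from RefSeq (GRCm38.p6), exon lengths and overlaps from GENCODE.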

Additional observations from a re-analysis of the deposited data

How the results depend on the processing

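No member was called by edgeR in any of the 4 comparisons with library size only, DESeq2's size factors, no filter on low counts, a minimum of 10 counts in 3 libraries, only the 6 libraries compared, or dispersions estimated without the robust option, and limma-voom called 0 as well. DESeq2 called 4 members in HFD Tert against HFD mCherry and 2 in HFD Tert against HFD TertCi; the cause was not tested. Leaving out each library in turn gave 0 to 0 calls in every comparison. The log2 fold change of Crisp1 then ranged from -4.62 to -2.13 in HFD mCherry against SD mCherry, 0.60 to 3.52 in HFD Tert against HFD mCherry, 1.94 to 4.18 in HFD TertCi against HFD mCherry, and -1.92 to -0.07 in HFD Tert against HFD TertCi. In the last of these comparisons limma-voom reversed the Crisp1 value to 0.92 (SE 6.03, adjusted p = 1.0); the cause was not tested. The log2 fold changes of Akr1b7 with 1 library left out ran from -4.98 to -2.34, 2.19 to 3.75, 3.59 to 4.85 and -1.98 to -0.52 in the same order. The other 79 alternative values of Crisp1 and all 80 of Akr1b7 kept their direction and stayed uncalled. Of the segment shares under other length corrections, 50 moved beyond counting error and 22 did not, and 5 of the 36 counts of members recomputed at other levels or scalings moved by over 1.5 times. With library size only, the 10 genes most like Crisp1 were all shared with the main list, and 6 were with a pseudocount of 1. The levels of 5, 20 and unscaled 10 CPM for the combinations were chosen after seeing the data. No paired analysis was possible because replicate numbers differ between all 4 groups. Intervals from counting would cover sampling error only, and the spread between libraries of a group limits the precision of every group comparison here.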

Other observations

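Genes listed for other cell types of the duct were also unevenly spread, and the tissue that their transcripts came from was not tested. Multiciliated cells line the efferent ducts; Foxj1, their master regulator, had 218 CPM in SD mCherry replicate 1 and 239 CPM in SD mCherry replicate 2, 31.2 CPM in HFD mCherry replicate 15 and at most 12.1 CPM in the other 9 libraries. Dnah5, an axonemal dynein gene, followed with 68.5 and 108 CPM in SD mCherry replicates 1 and 2. Of 7 genes listed for clear cells, Foxi1, the regulator of these acid-secreting cells, reached 27.2 CPM in HFD mCherry replicate 15 and at most 2.74 CPM elsewhere. Atp6v1g3 and Atp6v1b1 were also highest in that library, at 18.9 and 5.74 CPM, and had no count in SD mCherry replicate 2. By contrast, Atp6v0a4, a proton pump subunit, was highest in SD mCherry replicate 2, at 19.3 CPM. So was Cftr, a chloride channel of the duct epithelium, at 55.5 CPM. Slc4a9 was at most 1.16 CPM in any library. Aqp9, a water and glycerol channel of the duct epithelium, had 99.7, 65.1 and 165 CPM in SD mCherry, 75.1, 9.60 and 4.59 in HFD mCherry, 100.2, 31.9 and 6.34 in HFD Tert, and 154, 6.04 and 119 in HFD TertCi. It was therefore found in SD mCherry replicate 2, where members took 0.0038% of the counts.

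Etv4 and Etv5, ETS factors known for the initial segment, were highest in HFD mCherry replicate 15, at 47.0 and 171 CPM, and next in SD mCherry replicate 3, at 19.3 and 53.2 CPM. In the other 10 libraries Etv4 was at most 4.26 CPM and Etv5 between 14.1 and 30.4 CPM. These are the libraries in which Lcn9, Cst12 and Lcn10 were counted.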
